A study of Mus musculus with 6 samples.

Results

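The 9 genes described here encode enzymes that build or break down amino acids and that are known from the kidney proximal tubule, the segment of the nephron that takes back most filtered amino acids. They are Gatm and Gamt of creatine synthesis, Ass1 and Asl of arginine synthesis, Ddc, which makes dopamine, Hpd and Hgd of tyrosine breakdown, Gldc of glycine cleavage, and Dao, which oxidises D-amino acids. The members were chosen by gene symbol, and all 9 were present among the 13026 genes of the deposited table and among the 12836 genes tested. The study sequenced RNA from whole kidneys of mice in 6 libraries, 3 of LIGHT knockout mice (LIGHT-/-) and 3 of wild type mice (LIGHT+/+). LIGHT, the product of Tnfsf14, is a signalling protein of the TNF superfamily, and all mice were adult males with a C57BL/6 J background. All 6 kidneys had been through bilateral ischemia for 32 min and reperfusion for 24 h, so both groups carry the injury and no unoperated kidney was analysed here. The labels do not say how the LIGHT allele was made, Tnfsf14 itself was not analysed here, and the labels do not state that each library came from a different mouse, so p-values measure only the spread between these libraries.

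As background, the proximal tubule is a main site of amino acid handling in the body. It makes guanidinoacetate, the precursor of creatine, and turns citrulline that arrives from the gut into arginine for export to the blood. It also takes up L-DOPA and turns it into dopamine, which acts on sodium excretion, and it holds enzymes that degrade glycine, tyrosine and D-amino acids. Proximal tubule cells, above all those of the outer medulla, are known to be sensitive to ischemia.

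The deposited values are FPKM, a level per kilobase of transcript and per fixed number of fragments, so levels can be compared between genes. The number of reads behind them is unknown. FPKM summed to between 299667 and 314533 in the knockout libraries and between 308876 and 318493 in the wild type libraries. Knockout library 3 stood apart: across genes, on log2(FPKM + 1), it correlated with the other libraries at a Pearson r of 0.934 to 0.956, while the other 5 correlated with each other at 0.976 to 0.989. For the members, and for other genes and pathway groups whose differences rest on it, values without it are therefore given too. In the knockout and wild type libraries, all 8 general proximal tubule markers checked were present, and none of them was at 0 in any library. Among them were Lrp2, the endocytic receptor megalin, and Slc34a1, a phosphate transporter. The deposited table holds no gene low in both groups, so a marker near 0 in both would be missing from it.

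All 9 enzymes averaged higher in LIGHT knockout kidneys than in wild type kidneys, but no member passed the test. The median log2 fold change of the 9 was 0.57, against -0.01 over all genes tested, and single members ran from 0.18 for Ddc to 0.89 for Gatm. Over all genes tested, 47.9% had a fold change above 0. The test was limma on log2(FPKM + 1), with Benjamini-Hochberg adjustment over all 12836 genes and a threshold of 0.05, and 0.117% of the genes tested passed it. The members' limma adjusted p ran from 0.592 to 0.840, and 1 of them, Hgd, had an unadjusted p under 0.05, as did 8.08% of the genes tested. The size of the difference leaned on single libraries. Without knockout library 3 all 9 members still averaged higher, but their median log2 fold change was 0.21, against -0.01 over all genes tested. Without wild type library 3 the median was 0.29, with 7 members higher and 2 lower. With 3 libraries in each group, the smallest two-sided p of an exact permutation test is 0.1, so the moderated test is used for each gene.

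**Figure D1:**
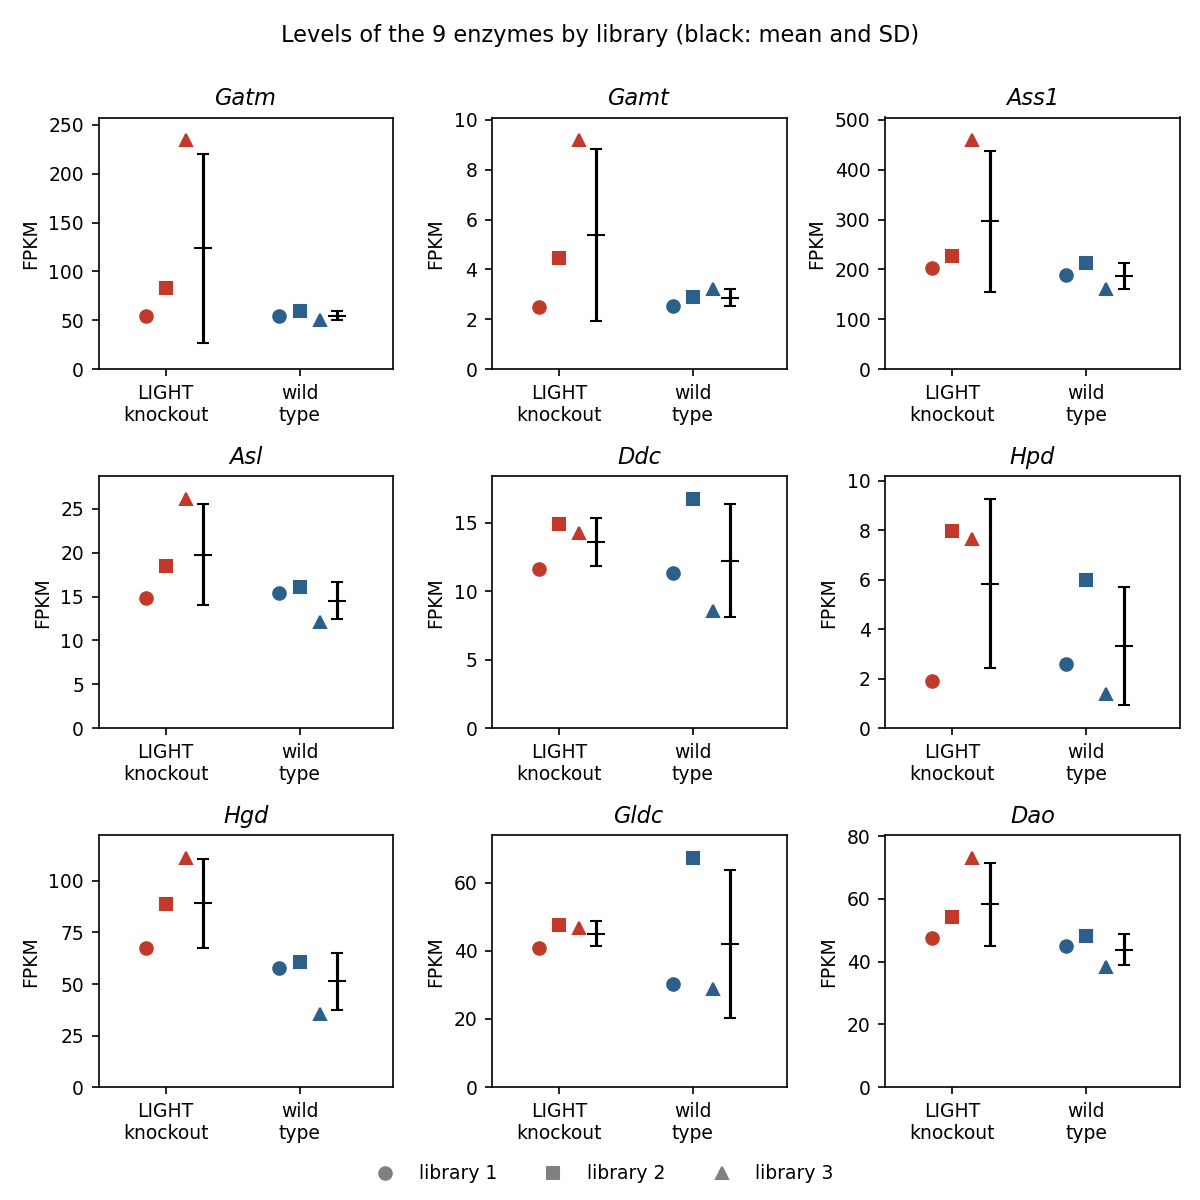
FPKM of each enzyme (vertical axes, from 0) in the 3 LIGHT knockout and the 3 wild type libraries, with the mean and SD in black. Knockout library 3 (red triangles) is the highest of the 6 libraries in 6 of the 9 panels, and the groups are apart only for Hgd.

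The sequences before the start sites of both creatine genes and of Hgd are shown because Gatm had the largest fold change, Gamt is its partner in the pathway, and Hgd is the one member whose groups did not overlap. Each is the 250 bases before the RefSeq start on GRCm38.p6, the assembly of mm10, 5′ to 3′ on the gene's strand, with capitals for every CG dinucleotide. They lie at chr2:122611278-122611527 (minus strand), chr10:80261013-80261262 (minus strand) and chr16:37579903-37580152 (plus strand).
Gatm: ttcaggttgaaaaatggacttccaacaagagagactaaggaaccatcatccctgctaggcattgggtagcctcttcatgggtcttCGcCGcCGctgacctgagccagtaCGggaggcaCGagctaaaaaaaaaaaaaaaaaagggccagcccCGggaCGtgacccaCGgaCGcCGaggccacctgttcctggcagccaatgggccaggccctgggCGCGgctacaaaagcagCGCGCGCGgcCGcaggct
Gamt: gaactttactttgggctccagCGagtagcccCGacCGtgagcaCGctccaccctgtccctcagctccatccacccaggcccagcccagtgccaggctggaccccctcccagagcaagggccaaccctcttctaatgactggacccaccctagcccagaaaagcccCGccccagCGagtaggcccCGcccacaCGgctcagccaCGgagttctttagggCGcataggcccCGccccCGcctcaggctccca
Hgd: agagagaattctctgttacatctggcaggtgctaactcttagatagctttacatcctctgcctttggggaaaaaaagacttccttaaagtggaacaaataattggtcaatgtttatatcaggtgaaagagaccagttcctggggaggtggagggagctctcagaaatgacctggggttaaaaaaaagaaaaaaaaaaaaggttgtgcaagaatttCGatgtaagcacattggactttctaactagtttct
The Gatm stretch holds 17 CG dinucleotides, the Gamt stretch 12 and the Hgd stretch 1, against a median of 6 over all promoters of the RefSeq table, and 92.1% of them hold at least 1. GC content is 59.2% for Gatm, 66.8% for Gamt and 38.8% for Hgd, against a median of 52.4%. Base composition thus differs widely among the 3 stretches, and its bearing on the levels was not tested. Of the members, 8 were found in the table, under 11 start sites, and Asl is named only. From 250 bases before to 50 after each start, on both strands, none of the 11 windows held the HNF1 site letters GTTAAT, which 7.1% of all promoter windows hold, the HNF4 core CAAAGTCCA, held by 0.475%, or a strict NF-kB consensus, held by 1.47%.

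Creatine is made in sequence by Gatm, which joins arginine and glycine into guanidinoacetate in mitochondria, and Gamt, which methylates that product. Gatm (ENSMUSG00000027199.14; mm10 chromosome 2, 122594467 to 122611303, minus strand) stood at 54.1, 82.9 and 234 FPKM in knockout libraries 1 to 3, against 54.6, 59.5 and 50.1 FPKM in wild type libraries 1 to 3. Knockout library 1 lay within the wild type range, library 2 above it and library 3 at 4.28 times the wild type mean, so the groups overlapped. The mean was 124 ± 96.8 FPKM in the knockout and 54.7 ± 4.70 FPKM in wild type (SD, n = 3 each). Its log2 fold change was 0.89 ± 0.49 (SE) with a limma adjusted p of 0.616, and 0.29 with an adjusted p of 0.796 without knockout library 3.

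Gamt (ENSMUSG00000020150.13; chromosome 10, 80258151 to 80261012, minus strand) was far less abundant, with 2.48, 4.47 and 9.17 FPKM in knockout libraries 1 to 3, against 2.52, 2.89 and 3.20 FPKM in wild type libraries 1 to 3. The order of the knockout libraries was that of Gatm, with library 1 the lowest of all 6 and library 3 the highest. For Gamt the log2 fold change was 0.58 ± 0.36 (SE; limma adjusted p = 0.640), and 0.18 without knockout library 3. At this low level the added 1 FPKM holds the estimate down, and with a pseudocount of 0.1 it was 0.69. The ratio of the Gatm level to the Gamt level was 21.8, 18.5 and 25.5 in the knockout libraries and 21.7, 20.5 and 15.7 in the wild type libraries. Both transcripts were thus high together in knockout library 3, and their ratio overlapped between the groups.

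Genes for the neighbouring steps of creatine handling take creatine up and charge it. Of 5 genes listed, 3 were tested, all 3 averaged lower in the knockout, and none was highest in knockout library 3 or passed the test. Without wild type library 3, 2 of the 3 averaged higher. Slc6a8, the creatine transporter, averaged 39.3 ± 3.74 FPKM in the knockout and 45.2 ± 5.95 FPKM in wild type. Ckmt1, a mitochondrial creatine kinase, averaged 15.1 ± 4.70 FPKM in the knockout and 17.3 ± 5.34 FPKM in wild type (SD, n = 3 each; limma adjusted p = 0.840). In annotation it overlaps Strc.

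Arginine synthesis runs from Ass1, which joins citrulline to aspartate, to Asl, which splits argininosuccinate into arginine and fumarate. Ass1 (ENSMUSG00000076441.9; chromosome 2, 31470207 to 31520672, plus strand) was the most abundant member in every library. It stood at 203, 227 and 459 FPKM in knockout libraries 1 to 3, against 188, 213 and 161 FPKM in wild type libraries 1 to 3. Knockout library 3 was far above the other 5, while knockout library 1 lay below wild type library 2, so the groups overlapped. The mean was 297 ± 141 FPKM in the knockout and 187 ± 25.8 FPKM in wild type (SD, n = 3 each). The log2 fold change was 0.57 ± 0.31 (SE; limma adjusted p = 0.613) and 0.21 without knockout library 3.

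Of the 31-base words of the Ass1 transcripts, 43.1% also occur in transcripts of other genes, most of them in Gm5424, so reads may have been split between the copies. Gm5424 itself was low, at 3.11, 4.42 and 9.34 FPKM in the knockout libraries and 2.98, 2.57 and 2.45 FPKM in the wild type ones. The sum of both was 207, 232 and 468 FPKM in the knockout libraries, against 191, 215 and 164 FPKM in the wild type libraries, the same order of libraries as for Ass1 alone. No other member shared more than 2.69% of its words with another gene.

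Asl (ENSMUSG00000025533.15; chromosome 5, 130011258 to 130029247, minus strand) stood at 14.9, 18.4 and 26.1 FPKM in knockout libraries 1 to 3, against 15.5, 16.0 and 12.1 FPKM in wild type libraries 1 to 3. The pattern was that of Ass1 at a smaller size, with knockout library 3 highest and wild type library 3 lowest. Its log2 fold change was 0.39 ± 0.21 (SE; limma adjusted p = 0.613), and 0.19 without knockout library 3. The ratio of Ass1 to Asl was 13.7, 12.3 and 17.6 in the knockout libraries and 12.2, 13.3 and 13.3 in the wild type libraries.

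Among other genes of arginine, ornithine and proline, 13 of 18 listed were tested, 6 averaged higher and 7 lower in the knockout, against 8 higher and 5 lower without knockout library 3, and none passed. Prodh2, which oxidises hydroxyproline, stood at 7.92, 12.1 and 17.0 FPKM in the knockout libraries, against 6.72, 5.98 and 5.35 FPKM in the wild type libraries. Aldh4a1, an enzyme of proline breakdown, averaged 53.7 ± 17.8 FPKM in the knockout and 35.7 ± 3.32 FPKM in wild type. Both genes had groups that did not overlap, with a limma adjusted p of 0.592. They were named for the smallest unadjusted limma p of the 13, and 7.76% of all genes tested had groups apart in that direction. The log2 fold change was 0.87 for Prodh2 and 0.53 for Aldh4a1 with all libraries, and 0.63 and 0.28 without knockout library 3. Arg2, the mitochondrial arginase that removes arginine, stood at 40.6, 40.6 and 14.9 FPKM in the knockout libraries and 34.6, 53.0 and 33.1 FPKM in the wild type libraries (limma adjusted p = 0.739). Knockout library 3 was the lowest of the 6, and the log2 fold change of Arg2 was -0.42 with it and 0.04 without it.

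Ddc, aromatic L-amino acid decarboxylase, turns L-DOPA into dopamine. Ddc (ENSMUSG00000020182.16; chromosome 11, 11814101 to 11898144, minus strand) stood at 11.6, 14.9 and 14.3 FPKM in knockout libraries 1 to 3, against 11.3, 16.7 and 8.59 FPKM in wild type libraries 1 to 3. All 3 knockout libraries lay inside the wild type range. The log2 fold change was 0.18 ± 0.23 (SE; limma adjusted p = 0.802), the smallest of the 9, and it turned to -0.025 without wild type library 3. Maoa, which degrades dopamine and other monoamines, stood at 16.8, 14.0 and 6.77 FPKM in the knockout libraries, against 19.1, 17.8 and 12.6 FPKM in the wild type libraries. Its log2 fold change was -0.43 (limma adjusted p = 0.687), and -0.07 without knockout library 3.

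In tyrosine breakdown, Hpd makes homogentisate and Hgd opens its ring. Hgd (ENSMUSG00000022821.13; chromosome 16, 37580153 to 37632020, plus strand) stood at 67.6, 88.9 and 111 FPKM in knockout libraries 1 to 3, against 57.8, 60.8 and 35.2 FPKM in wild type libraries 1 to 3. It was the 1 member of 9 whose lowest knockout value lay above its highest wild type value, by a factor of 1.11, and 7.76% of all genes tested had groups apart in that direction. The mean was 89.1 ± 21.7 FPKM in the knockout and 51.3 ± 14.0 FPKM in wild type (SD, n = 3 each). The log2 fold change of 0.80 ± 0.26 (SE) did not pass over all genes (limma adjusted p = 0.592), and it was 0.63 without knockout library 3 and 0.55 without wild type library 3. Hgd leaned on knockout library 3 less than the creatine and arginine genes did.

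Hpd (ENSMUSG00000029445.13; chromosome 5, 123171807 to 123182727, minus strand) varied more within each group than any other member except Gatm did in the knockout. It stood at 1.92, 7.98 and 7.64 FPKM in knockout libraries 1 to 3, against 2.60, 5.99 and 1.40 FPKM in wild type libraries 1 to 3. The highest library of a group exceeded the lowest 4.15 times in the knockout and 4.28 times in wild type. Its log2 fold change was 0.64 ± 0.55 (SE; limma adjusted p = 0.714). Leaving out 1 library moved it to 0.38 (knockout library 3), 0.36 (knockout library 2), 0.28 (wild type library 3), 1.17 (knockout library 1) or 1.05 (wild type library 2). Hpd overlaps Psmd9, a proteasome assembly factor on the opposite strand, which ran only from 2.82 to 3.59 FPKM in the knockout and from 3.32 to 3.75 FPKM in wild type. Hpd also overlaps a noncoding model, and Ddc, Hgd and Gldc overlap antisense or pseudogene models, none of which was analysed here. The labels do not say whether reads were counted by strand.

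The ratio of Hgd to Hpd was 35.2, 11.1 and 14.5 in the knockout libraries and 22.2, 10.2 and 25.2 in the wild type libraries, so these consecutive enzymes did not keep a steady ratio in either group. Of 11 other genes listed for tyrosine, phenylalanine and dopamine, 8 were tested, 6 averaged higher in the knockout and none passed. Their median log2 fold change was 0.34 with all libraries, and 0.17 without knockout library 3, with 7 higher. Gstz1 and Fah, enzymes after the pair, were named for the smallest unadjusted limma p of the 8. Gstz1, the isomerase after Hgd, averaged 110 ± 22.1 FPKM in the knockout and 75.4 ± 13.0 FPKM in wild type (SD, n = 3 each). Fah, the last step, averaged 102 ± 10.5 FPKM in the knockout and 77.4 ± 14.1 FPKM in wild type (SD, n = 3 each; limma adjusted p = 0.592 for Gstz1 and Fah). The groups of both genes were apart, as were those of 7.76% of all genes tested in that direction.

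Gldc, the decarboxylase of the mitochondrial glycine cleavage system, had its highest value in wild type library 2. Gldc (ENSMUSG00000024827.9; chromosome 19, 30098447 to 30175429, minus strand) stood at 40.7, 47.6 and 46.7 FPKM in knockout libraries 1 to 3, against 30.3, 67.1 and 28.7 FPKM in wild type libraries 1 to 3. The knockout values lay close together between the extremes of wild type, at 45.0 ± 3.75 FPKM in the knockout and 42.0 ± 21.7 FPKM in wild type (SD, n = 3 each). The log2 fold change was 0.20 ± 0.31 (SE; limma adjusted p = 0.840), with -0.0094 without wild type library 3 and 0.59 without wild type library 2. All 9 members lay above their wild type mean in wild type library 2, and Ddc was the other member with its highest value of all 6 libraries there. On log2(FPKM + 1), Hpd lay 0.83 above its wild type mean in that library and Gldc 0.77.

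Amt, the aminomethyltransferase of the same glycine cleavage complex, had another order of libraries. It stood at 22.8, 26.1 and 28.6 FPKM in the knockout libraries, against 19.0, 18.2 and 14.8 FPKM in the wild type libraries (log2 fold change 0.55 ± 0.13, SE; limma adjusted p = 0.592), and its groups were apart. Pipox, a peroxisomal oxidase of sarcosine and pipecolate, averaged 67.5 ± 14.4 FPKM in the knockout and 43.3 ± 7.90 FPKM in wild type. Amt and Pipox were named for the smallest unadjusted limma p of the glycine and serine genes tested. Of 20 genes listed for glycine and serine, 17 were tested, 13 averaged higher in the knockout and none passed. Their median log2 fold change was 0.20 with all libraries, and 0.083 without knockout library 3, with 12 higher.

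Dao, D-amino acid oxidase, is a peroxisomal enzyme that degrades D-serine and other neutral D-amino acids. Dao (ENSMUSG00000042096.15; chromosome 5, 114003703 to 114025682, plus strand) stood at 47.4, 54.3 and 72.9 FPKM in knockout libraries 1 to 3, against 45.1, 48.1 and 38.4 FPKM in wild type libraries 1 to 3. The overlap was narrow, since only knockout library 1 lay below wild type library 2, by a factor of 0.986. The log2 fold change was 0.38 ± 0.17 (SE; limma adjusted p = 0.595), and 0.21 without knockout library 3.

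The 5 other genes of D-amino acid and peroxisomal oxidation all averaged higher in the knockout, and none passed. Srr, serine racemase, which makes D-serine, stood at 18.3, 21.1 and 19.7 FPKM in the knockout libraries, against 12.6, 9.02 and 13.9 FPKM in the wild type libraries. Ddo, which oxidises D-aspartate, averaged 18.3 ± 1.59 FPKM in the knockout and 12.0 ± 1.98 FPKM in wild type (SD, n = 3 each). The groups of Srr and Ddo were apart and knockout library 3 lay close to the other knockout libraries, with log2 fold changes of 0.71 ± 0.16 and 0.59 ± 0.13 (SE; limma adjusted p = 0.592 for each). Srr and Ddo were named for the smallest unadjusted limma p of the 5, and 7.76% of all genes tested had groups apart in that direction. Srr overlaps Tsr1 and Smg6 in annotation.

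Ordered by level, the members spread over a wide range of the table. Ass1 ranked 131st of 12836 genes by its mean over the 6 libraries, Gatm 522nd, Hgd 695th, Dao 1010th, Gldc 1214th, Asl 3214th, Ddc 4153rd, Hpd 8019th and Gamt 8384th. In wild type the range of Ass1 lay above those of all other members. In the knockout it overlapped that of Gatm, which in library 3 exceeded Ass1 of libraries 1 and 2, and lay above the ranges of the other members. In wild type, Gatm, Hgd, Dao and Gldc lay between 28.7 and 67.1 FPKM, where Hgd and Gldc overlapped each other and both of the others and Gatm lay above Dao. Also in wild type, Asl and Ddc overlapped between 8.59 and 16.7 FPKM, and Hpd and Gamt between 1.40 and 5.99 FPKM. In the knockout, Gatm, Hgd and Dao overlapped, as did Dao and Gldc, Asl and Ddc, and Hpd and Gamt, and Gldc lay below Gatm and Hgd.

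Library by library, the members deviated together in some libraries and not in others. On log2(FPKM + 1), the median member lay 0.04 above the wild type mean in knockout library 1, 0.33 above it in library 2 and 1.14 above it in library 3. The wild type libraries lay at 0.00, 0.19 and -0.23 on the same scale, so knockout library 1 fell inside the wild type range. Relative to the wild type mean FPKM, the members ran from 0.577 times (Hpd) to 1.32 times (Hgd) in knockout library 1, from 1.13 times (Gldc) to 2.40 times (Hpd) in library 2 and from 1.11 times (Gldc) to 4.28 times (Gatm) in library 3. Knockout library 3 held the highest value of 6 of the 9 members, against 29.8% of all genes tested, and wild type library 3 the lowest value of 8 of the 9, against 15.2%. The exception at the low end was Gamt, which was lowest in knockout library 1.

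**Figure D2:**
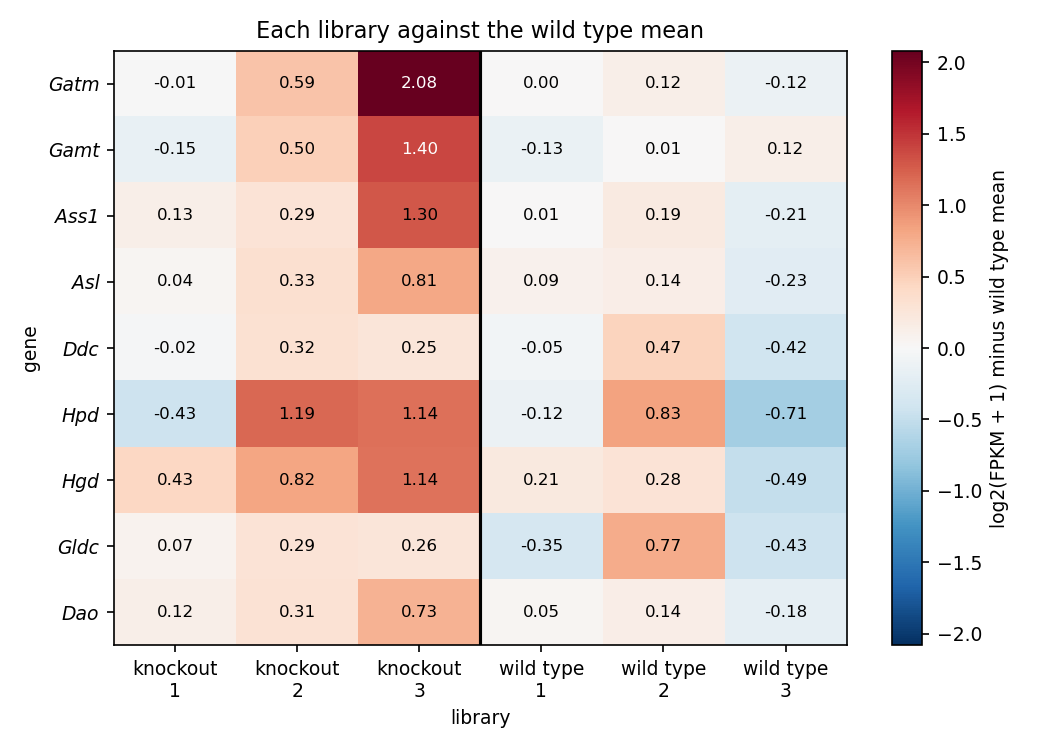
Difference of each library (columns) from the wild type mean on log2(FPKM + 1) for each enzyme (rows), with red above and blue below. Knockout library 3 reaches 2.08 for Gatm, knockout library 1 stays between -0.43 and 0.43, and Ddc and Gldc are highest in wild type library 2.

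Together the 9 transcripts took 0.141%, 0.182% and 0.327% of the summed FPKM in knockout libraries 1 to 3, against 0.128%, 0.157% and 0.110% in wild type libraries 1 to 3. Ass1 alone made up 41.6 to 46.8% of that sum in the knockout and 43.4 to 47.6% in wild type. The difference between the group means was 0.0854 percentage points with all libraries and 0.0302 percentage points without knockout library 3. In whole kidney, more proximal tubule cells and more RNA of these genes per cell cannot be told apart.

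Summed marker levels of several cell types also stood apart in knockout library 3. The 8 general proximal tubule markers summed to 1025, 1122 and 1819 FPKM in knockout libraries 1 to 3, against 865, 926 and 753 FPKM in wild type libraries 1 to 3. The 6 markers of injured tubules, among them Havcr1 (kidney injury molecule 1) and Lcn2 (lipocalin 2), summed to 5951, 4692 and 1613 FPKM in the knockout libraries, against 6120, 5714 and 6352 FPKM in the wild type libraries. Most of that sum was Spp1, osteopontin, at 4691, 3639 and 1322 FPKM in the knockout libraries and 4531, 4265 and 4764 FPKM in the wild type libraries. Of the 6, all but Vcam1 were lowest in knockout library 3. Havcr1 stood at 596, 415 and 143 FPKM in the knockout libraries, against 895, 770 and 833 FPKM in the wild type libraries. Its groups were apart, as were those of 8.8% of all genes tested in that direction, and those of the other injury markers overlapped. Of the 8 proximal tubule markers, all but Hnf4a and Slc22a6 were highest in knockout library 3, where Slc34a1 made up 875 FPKM of the sum. Slc22a6 stood at 207, 176 and 172 FPKM in the knockout libraries, against 147, 151 and 108 FPKM in the wild type libraries. Hnf4a stood at 144.1, 138.8 and 158.7 FPKM in the knockout libraries, against 159.4, 167.6 and 120.4 FPKM in the wild type libraries. By their sums, knockout library 3 was thus highest in the enzymes and the proximal markers and lowest in the injury markers.

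Within the proximal tubule, the 4 markers of its last segment summed to 33.4, 56.8 and 175 FPKM in the knockout libraries, against 42.8, 38.8 and 56.5 FPKM in the wild type libraries. Most of that rested on Slc7a13, an aspartate and glutamate transporter, at 144 FPKM in knockout library 3. The groups of all 4 markers overlapped. Slc22a7 was lower in knockout libraries 1 and 2, at 0.997 and 2.28 FPKM, than in any wild type library, at 3.60, 3.57 and 4.01 FPKM. The 4 markers of the early segments summed to 155, 178 and 243 FPKM in the knockout libraries and 137, 129 and 118 FPKM in the wild type libraries. Outside the proximal tubule, the 4 collecting duct markers summed to 61.9, 112 and 405 FPKM in the knockout libraries and 68.9, 133 and 110 FPKM in the wild type libraries. Aqp2, a water channel, made up 325 FPKM of the sum in knockout library 3. The 4 markers of the thick ascending limb and distal tubule summed to 458, 579 and 889 FPKM in the knockout libraries and 556, 730 and 873 FPKM in the wild type libraries. Of the 4, all but Umod were highest in knockout library 3. Slc12a1 stood at 13.5, 30.7 and 138 FPKM in the knockout libraries, against 12.7, 48.9 and 42.5 FPKM in the wild type libraries.

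The 3 podocyte markers summed to 76.7 to 79.1 FPKM in the knockout and 86.2 to 102 FPKM in wild type. The 4 endothelial markers summed to 45.0 to 65.1 FPKM in the knockout and 44.3 to 63.5 FPKM in wild type, and the 3 fibroblast markers to 45.3 to 62.8 FPKM in the knockout and 46.8 to 69.8 FPKM in wild type. The 5 leukocyte markers summed to 35.7 to 71.5 FPKM in the knockout and 73.0 to 105 FPKM in wild type, mostly from S100a8 and S100a9, while Adgre1, a macrophage marker, was highest in knockout library 3. Since several of the 9 enzymes are also abundant in liver, hepatocyte genes were checked: Alb, albumin, did not exceed 2.21 FPKM in the knockout or 1.69 FPKM in wild type, and the 4 hepatocyte genes found of 5 listed summed to 45.0, 49.1 and 96.0 FPKM in the knockout libraries, against 39.5, 46.9 and 33.9 FPKM in the wild type libraries. Most of that sum was Ttr, transthyretin, in all libraries except knockout library 2. Serpina1a, an antitrypsin gene, stood at 5.17, 23.8 and 34.4 FPKM in the knockout libraries, against 3.00, 3.76 and 1.26 FPKM in the wild type libraries, so its groups were apart. The part of these cell type differences in the enzymes' levels was not tested.

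**Figure D3:**
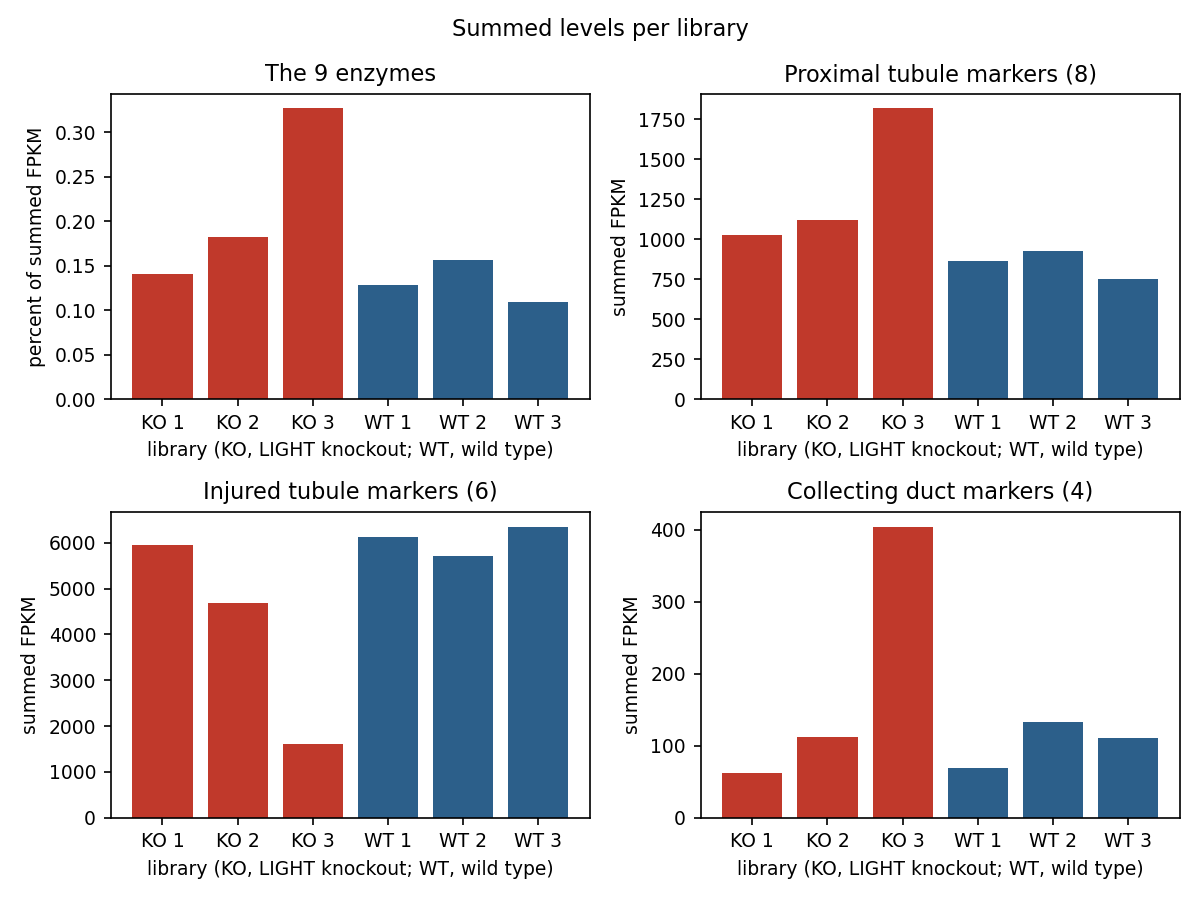
The 9 enzymes as a percent of summed FPKM, and the summed FPKM of proximal tubule, injured tubule and collecting duct markers, as bars from 0 for the 3 LIGHT knockout and the 3 wild type libraries. Knockout library 3 is highest in the enzymes (0.327%) and in the proximal and collecting duct markers, and lowest in the injury markers (1613 FPKM).

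**Figure D4:**
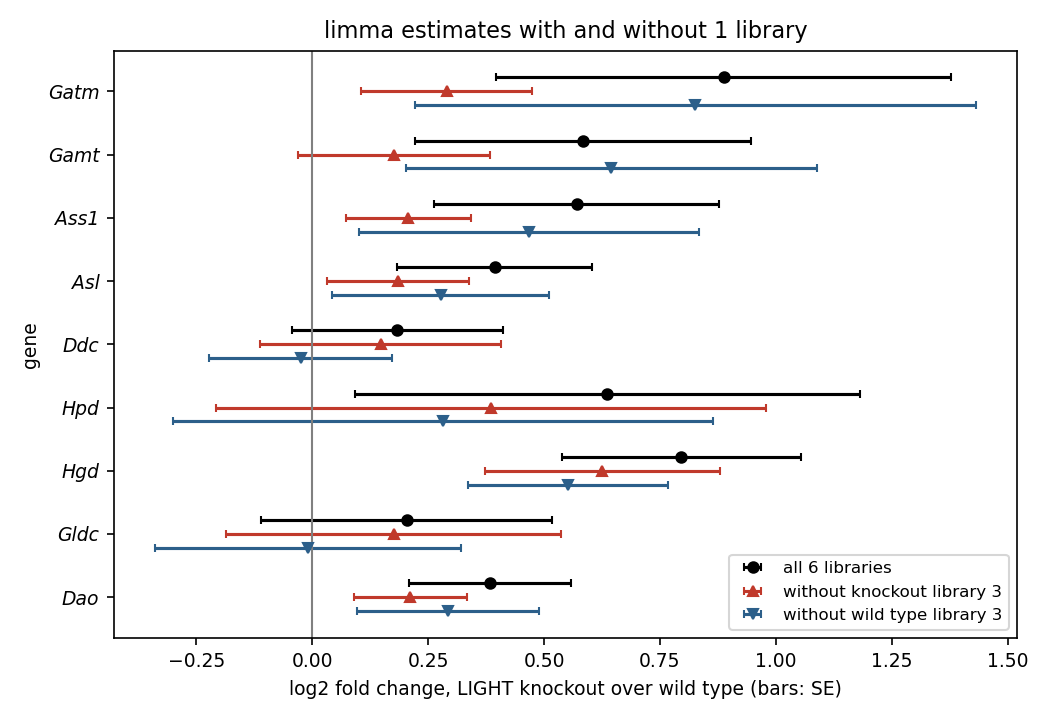
limma log2 fold changes of LIGHT knockout over wild type with SE for each enzyme, from all 6 libraries, without knockout library 3 and without wild type library 3. Gatm drops to 0.29 and Ass1 to 0.21 without knockout library 3, Hgd stays at 0.55 or more in both, and Ddc and Gldc lie near 0 without wild type library 3.

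The members were set beside a list of 113 other symbols of amino acid metabolism, of which 92 were tested. Mmut is the newer symbol of Mut, which was tested under the older one, and the other 20 were not analysed here. In the knockout 68 of the 92 averaged higher and 24 lower, with a median log2 fold change of 0.24, against -0.01 over all genes tested and 0.57 over the 9 members. None of the 92 passed the limma adjusted threshold. An unadjusted limma p under 0.05 was found for 24 higher and 1 lower genes, and for 8.08% of all genes tested in either direction. Of the 92, 63 were highest in knockout library 3, as were 29.8% of all genes tested. The groups did not overlap for 28 genes higher in the knockout and 2 lower, where 7.76% and 8.8% of all genes tested did so. Got1, the cytosolic aspartate aminotransferase, was among the lower ones and was named after its values were seen. Without knockout library 3 the median of the 92 was 0.14, with 67 higher, and without knockout library 1 it was 0.37.

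The groups of the list differed in direction with all 6 libraries. All 10 genes of lysine and tryptophan and all 9 of sulfur amino acids averaged higher in the knockout, with medians of 0.36 and 0.49, as did 14 of 17 genes of branched-chain amino acids, with a median of 0.31. Of 8 glutamate and glutamine genes, 3 averaged higher and 5 lower, with a median of -0.08. Without knockout library 3, 9 of the 10 lysine and tryptophan genes, 7 of the 9 sulfur genes, 13 of the 17 branched-chain genes and 4 of the 8 glutamate genes averaged higher, with medians of 0.20, 0.28, 0.19 and -0.03. Acmsd, Cdo1 and Mat2a, named after their values were seen, were the lysine and tryptophan and the sulfur genes that then averaged lower. Without wild type library 3, 9 of the 10 lysine and tryptophan genes averaged higher. Afmid, which makes kynurenine from formylkynurenine, had the largest fold change among genes that averaged 5 FPKM or more, at 9.80, 4.13 and 20.5 FPKM in the knockout libraries, against 2.85, 2.45 and 2.24 FPKM in the wild type libraries (log2 fold change 1.60 ± 0.47, SE; limma adjusted p = 0.592). Without knockout library 3 the log2 fold change of Afmid was 1.09. Afmid overlaps Tk1 in annotation. Bcat1, the cytosolic branched-chain aminotransferase, passed only when knockout library 1 was left out (log2 fold change 2.36, limma adjusted p = 0.0340). It stood at 1.57, 8.46 and 11.0 FPKM in the knockout libraries, against 0.812, 1.14 and 1.29 FPKM in the wild type libraries.

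**Figure D5:**
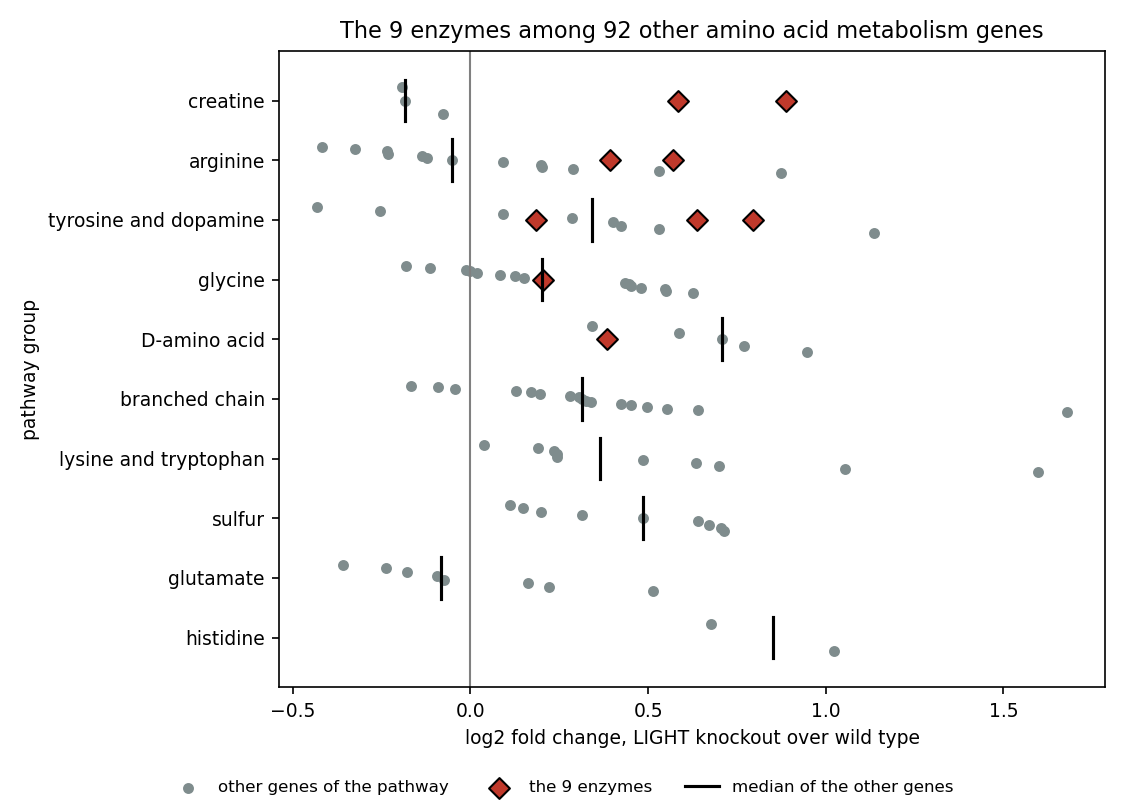
log2 fold change of LIGHT knockout over wild type (horizontal axis) for the 9 enzymes (red diamonds) and 92 other genes of amino acid metabolism (grey points) by pathway group, with the median of the other genes as a black bar. The creatine and arginine members lie to the right of the medians of their groups (-0.18 and -0.05). Dao lies left of the median (0.71) of the group labelled D-amino acid, which holds Hao2, Cat and Aspdh besides Ddo and Srr.

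The genes whose pattern over the 6 libraries was most like the mean pattern of the 9 members were sought among the 7701 other genes that averaged 5 FPKM or more. Likeness was the root mean square difference between log2(FPKM + 1) profiles, each centred on its own mean. The nearest 6 were Tmem178 (0.0867), a transmembrane protein gene, Ctsf (0.0915), which encodes cathepsin F, Acy1 (0.0932), Mut (0.108), Sucnr1 (0.109), the succinate receptor, and Cyp27a1 (0.114), a sterol hydroxylase. Acy1, which frees amino acids from their N-acetyl forms, stood at 7.51, 10.3 and 14.7 FPKM in the knockout libraries, against 7.78, 10.3 and 6.48 FPKM in the wild type libraries. Mut, the mitochondrial methylmalonyl-CoA mutase, stood at 47.1, 57.7 and 80.2 FPKM in the knockout libraries, against 42.2, 46.2 and 34.5 FPKM in the wild type libraries. Of the members themselves, Asl (0.133), Dao (0.166) and Ass1 (0.168) lay closest to the mean pattern, and Hpd (0.425) and Gatm (0.412) farthest from it. None of the 9 members is near Tnfsf14 in the genome, while Tmem178 and Mut are within 25 Mb of it, and so are 3 of the 92 other genes of amino acid metabolism, Mut included.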

How the data were processed

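Per the labels' protocols, TRIzol was used to extract RNA of whole kidneys and the library kit was a stranded one from KAPA. The values are FPKM per gene, made and deposited by the authors. Per the submitters' processing notes, FastQC, HISAT2, StringTie and mm10 were used; tool versions and annotation are not stated there. The files of all 6 libraries held the same values as the deposited table. In every row the higher group mean was at least 0.50043 FPKM, so genes low in both groups are not analysed here. FPKM give no read depth, so no count model and no counting interval was used.

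Groups and replicate numbers came from sample titles. Genes averaging 0.5 FPKM or more were kept, which removed 190 and left 12836, none of the removed being a member. LIGHT knockout was compared with wild type on log2(FPKM + 1) in limma 3.58.1 (R 4.3.3), using eBayes with a trend, two-sided, with Benjamini-Hochberg adjustment over all genes kept. The pseudocount understates fold changes of low genes. Fold changes and SE are from the fit, and means and SD are of FPKM.

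Same-numbered libraries were checked for pairing by the correlation of their deviations from the group means across genes, which was 0.15, -0.13 and -0.02, so the numbers were not treated as pairs. Positions are from GENCODE M21, on the assembly of mm10, where 13005 identifiers matched. Besides the overlaps given above, Aldh4a1 overlaps Gm21969 and Mir7020, Arg2 overlaps Vti1b and Gm48780, Gstz1 overlaps Pomt2 and Gm6566, and Mut overlaps Cenpq. Copies were marked by shared words of 31 bases, and promoter sequences are from RefSeq (GRCm38.p6).

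The members, the other gene lists and the motifs were chosen with earlier results of these data known. All 9 members are named. Of the other amino acid metabolism genes, those past the threshold, the 2 of smallest p in each of the members' 5 roles, and the 2 highest and 2 lowest fold changes among genes averaging 5 FPKM or more were named. Some genes are not reported here. Got1, Bcat1, Acmsd, Cdo1, Mat2a, Hao2, Cat, Aspdh, Psmd9 and Gm5424 fall outside that rule and were picked once their values were known, as was the CG count. The alternatives were 2 other pseudocounts, 2 other filters, 4 scalings, 3 variance models, the replicate number as a block, and each library left out in turn.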

Additional observations from a re-analysis of the deposited data

How the results depend on the processing

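No member passed the limma adjusted threshold under any of the 18 alternatives, and the smallest adjusted p of a member was 0.121, for Hgd with library weights. All 9 members averaged higher in the knockout under every alternative except without wild type library 3, where Ddc turned to -0.025 and Gldc to -0.0094 on the log2 scale, and the cause was not tested. When 1 library was left out, Ddc ran from -0.025 to 0.42 and Gldc from -0.0094 to 0.59. The members' median ran from 0.21 (without knockout library 3) to 0.79 (without knockout library 1) when 1 library was left out, was 0.25 with library weights and lay between 0.57 and 0.61 under the other alternatives. The knockout minus wild type difference in the share of summed FPKM ran from 0.0302 to 0.123 percentage points when 1 library was left out, and was 0.0970 without mitochondrially encoded genes. Of all genes, 15 passed in the fit given, 52 with library weights, 0 with the replicate block and 0 to 11 when 1 library was left out (with knockout library 2 omitted 0 genes passed, as with wild type library 1 or 3 omitted, and omitting wild type library 2 gave 6 and knockout library 1 gave 7), and the cause was not tested. The replicate block, whose numbers did not pair the libraries, changed no call on a member, with a smallest adjusted p of 0.656. Of the 92 other amino acid metabolism genes, 0 to 1 passed when 1 library was left out, and 0 under the other alternatives. The number of reads is unknown, so what depth limits cannot be given, and low genes such as Gamt and Hpd are the least certain.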
